A study of Mus musculus with 12 samples.

Results

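The genes described here are the matrix metalloproteinases (Mmp), the ADAMTS proteases (Adamts) and the tissue inhibitors of metalloproteinases (Timp) of mouse mammary tumors. Members were the genes whose symbol on the array began with Mmp, Adamts or Timp and a digit. There were 41 of them among 27962 genes on the array: 20 Mmp genes, 17 Adamts genes and 4 Timp genes. Each gene was represented by its brightest probe over both channels.

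The samples were 8 mammary tumors labelled ShcA-null, each hybridised on a 2-color oligonucleotide array against a pool of NIC mammary tumors. ShcA is an adaptor protein encoded by Shc1 that couples receptor tyrosine kinases to Ras signalling. As background, the NIC transgene places an activated Neu (ErbB2) receptor and the Cre recombinase in one transcript driven by the MMTV promoter, so that Cre is made in the mammary epithelial cells that express the oncogene, and both the tumors and the pool carry that oncogene. Non-epithelial cells of the tumor are outside the reach of that promoter as a rule. The labels give no ages, no other treatment, and no statement of how many animals the pool or the 8 tumors came from. Each tumor had a first array, and tumors 1 to 4 had a second array with the dyes swapped. The pool was 1 control sample, so the tests compared the mean log2 ratio of tumor over pool with 0 and left out the spread between control tumors.

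Matrix metalloproteinases are zinc proteases, secreted or anchored in the membrane, that cut collagens, gelatins, elastin and cell-surface proteins. ADAMTS proteases are secreted relatives whose thrombospondin repeats bind the matrix, and their substrates include procollagens and the proteoglycans aggrecan and versican. Timps bind the active site of these enzymes and block them. In mammary tumors much of the Mmp RNA is known to come from fibroblasts, macrophages and other stromal cells, and less from the carcinoma cells. In whole-tumor RNA, fewer cells of a type and less RNA per cell cannot be told apart.

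Both channels covered similar ranges of the array: 63.5% to 77.6% of gene spots were well above background in the tumor channel and 68.2% to 74.7% in the pool channel. Luminal epithelial markers were present, as the labelled tissue calls for: 8 of 9 tested markers, Krt8, Krt18 and Cdh1 among them, were well above background in the tumor channel of all 12 arrays. Shc1 itself had a log2 ratio of 0.12 ± 0.65 (SD, n = 8; limma adjusted p = 0.716), and on the first arrays it ran from -2.05 in tumor 3 to 0.71 in tumor 5. On the first arrays tumor 3 was the only tumor with low Shc1: 6 of 8 were above the pool and tumor 2 was at -0.03. The swapped array labelled tumor 2 was at -2.22, so averaged as labelled tumors 2 and 3 were at -1.13 and -0.65. ShcA-null is therefore used here as the label of the tumors. Whether its probe lies inside the deleted part of the gene was not stated in the labels or headers, and the value checks the label only if it does. One slide held tumors 1 to 4 (first arrays), another held tumors 5 to 8, and the third of the 3 slides held every swapped array, so that an effect of that slide and one of the dyes cannot be told apart.

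The tumor labels of the swapped arrays disagreed with their values. Over 30838 probes (either channel well above background in at least 4 tumors), deviations were taken from the mean of each set, first or swapped arrays. Their correlation put the swapped array labelled tumor 1 closest to tumor 1 (Pearson r = 0.614). The one labelled tumor 2 was closest to tumor 3 (r = 0.885, against -0.185 with tumor 2). The one labelled tumor 3 was closest to tumor 4 (r = 0.596, against -0.579 with tumor 3), and the one labelled tumor 4 to tumor 8 (r = 0.801, against 0.0766 with tumor 4). Averaging as labelled may therefore blend different tumors. The averaged values of tumors 2 and 3, 3 and 4, and 4 and 8 may then share an RNA and not be independent. Leaving out 1 of these values may then not remove 1 tumor. Values by tumor are given from the first arrays. Tests are given with the arrays averaged as labelled and, for most members described singly, with the first arrays alone. For the called members they are also given with each swapped array averaged with its best match, a setting chosen after seeing the data. For genes outside the members, only the tests with arrays averaged as labelled are given.

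The 36 tested members also showed it. The log2 ratios on the swapped array labelled tumor 2 differed from those on the first array of tumor 3 by a median of 0.261 and had the same sign in 36 of 36 members (r = 0.970). Against the first array of tumor 2 the median difference was 1.28 and 23 of 34 members had the same sign (r = 0.505). These correlations are across genes that share probes and the pool, and they are descriptions.

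**Figure D1:**
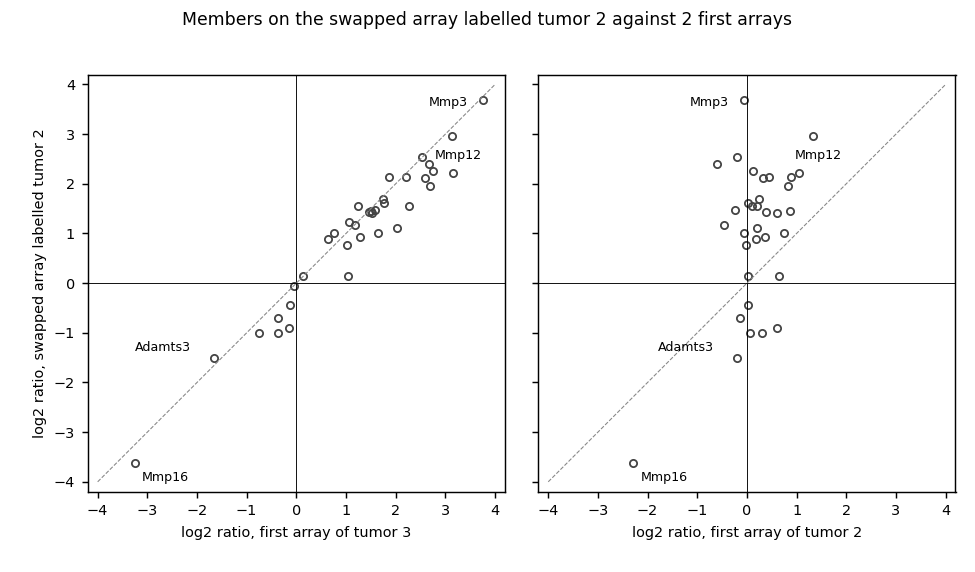
Log2 ratio (tumor over NIC pool) of the members on the swapped array labelled tumor 2 (vertical axis) against the first array of tumor 3 (left) and of tumor 2 (right); each point is 1 gene and the dashed line marks equal values. On the left the points follow the line, from Mmp16 (-3.62 and -3.25) to Mmp3 (3.68 and 3.76), and on the right they do not.

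A gene was tested where either channel was well above background in at least 4 tumors, which kept 36 of the 41 members: 17 Mmp, 15 Adamts and all 4 Timp genes. The rest were Mmp1a and Adamts13, which neither channel detected above background (0 of 12 arrays), Adamts18 (2 of 12 arrays in tumors and 3 of 12 in the pool), Mmp20 and Mmp21 (each 1 of 12 in tumors and 0 of 12 in the pool). Mmp21 and Mmp20 had mean log2 ratios of 0.10 and 0.09, with 6 tumors above and 2 below the pool for each. With only 1 tumor array well above background, these values give no bound on a difference, and neither gene was tested. Adamts19 and Adamts20 passed through 4 tumor arrays with 1 pool array well above background.

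In the tumors labelled ShcA-null, 3 members were higher and 1 was lower than in the NIC pool: Mmp12, Mmp13 and Adamts6 rose and Mmp16 fell (limma, Benjamini-Hochberg adjusted p under 0.05 over 20583 genes). That is 4 of 36, or 11.1%, while 17.2% of all tested genes were called in either direction, 6.6% higher and 10.6% lower. The members' share was thus no larger than that of the array as a whole. Past 2-fold as well, 2 of the 36 remained, Mmp12 higher and Mmp16 lower, against 4.78% of all genes, 1.88% higher and 2.9% lower. By family, 3 of 17 Mmp genes, 1 of 15 Adamts genes and 0 of 4 Timp genes were called. The median log2 ratio over the 36 members was 0.26, against -0.02 over all tested genes, and their median SD between tumors was 0.63, against 0.46 over all tested genes. Centring each array on its median in place of loess moved the median of all genes to 0.16 and the higher share of all calls to 70.7%, against 38.3% with loess.

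**Figure D2:**
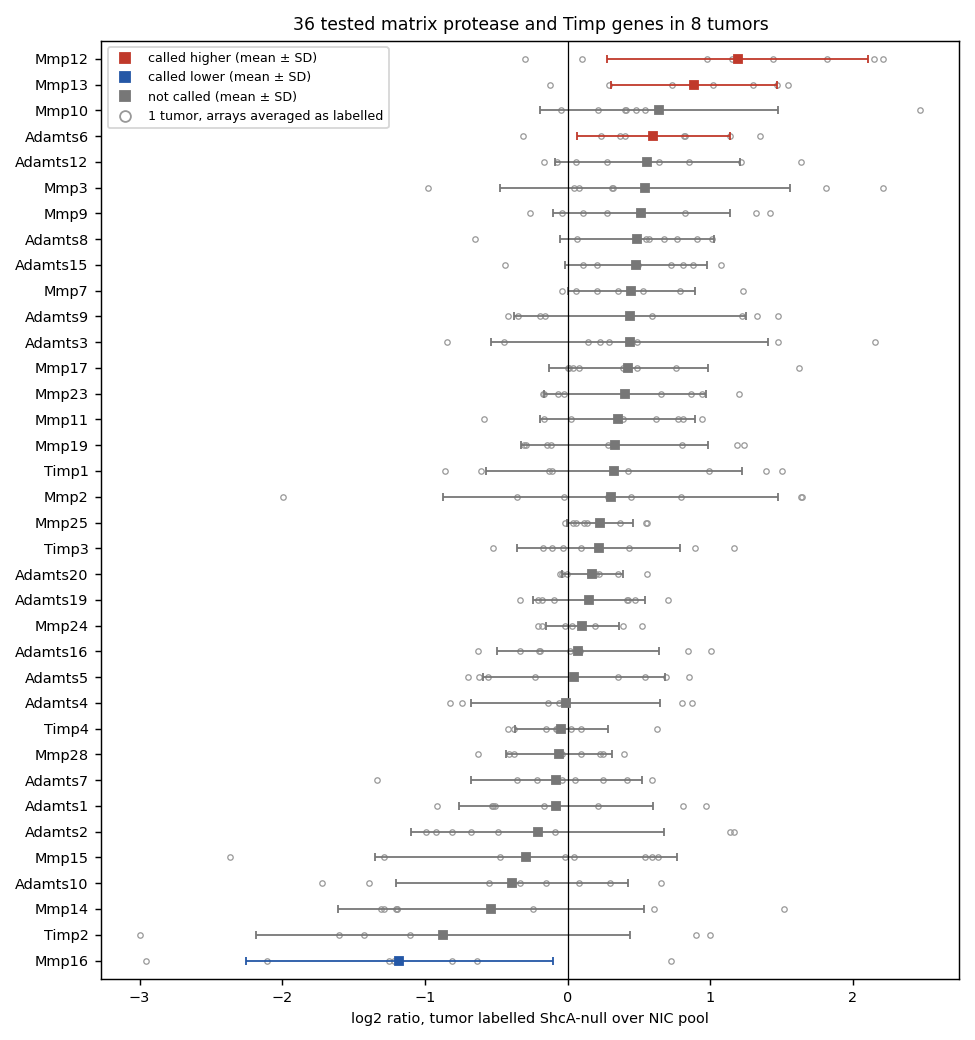
Log2 ratio (tumor labelled ShcA-null over NIC pool) of the 36 tested members: squares with bars give mean ± SD over 8 tumors, circles the single tumors with arrays averaged as labelled. Mmp12, at 1.19 ± 0.92, heads the order and Mmp16, at -1.18 ± 1.07, ends it, and the circles of every member except Mmp17 lie on both sides of 0.

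Mmp12, the macrophage elastase, is a secreted enzyme that degrades elastin and is known chiefly from macrophages. Its log2 ratios on the first arrays ran from -0.30 in tumor 7 through a median of 1.05 to 3.14 in tumor 3, and 7 of 8 tumors were above the pool. Tumor 8 (1.82), tumor 2 (1.33) and tumor 1 (1.13) came next, while tumor 6 (0.10) was near the pool. The probe's level (log2 intensity) was 11.1 ± 0.89 in the tumors and 9.91 ± 0.16 in the pool, where the SD of the pool is over the same 8 values per tumor, all of one pooled RNA and 4 of them the average of 2 hybridisations. With arrays averaged as labelled, Mmp12 had a log2 ratio of 1.19 ± 0.92 (SD, n = 8; limma SE 0.287, adjusted p = 0.0214), a 2.29-fold difference. The first arrays alone gave 1.13 (limma adjusted p = 0.0363) and the best-matching arrays gave 1.16 (limma adjusted p = 0.0479). Its mean was 1.62 on the slide of tumors 1 to 4, 0.65 on the slide of tumors 5 to 8 and 1.85 on the slide of swapped arrays. Leaving out tumor 2, 3, 4 or 8 ended the call, with the limma adjusted p between 0.0502 and 0.0579, and none of the 7 tested macrophage markers was called over the 8 tumors. In tumor 3, which had the highest Mmp12, all 7 of them were at least 2-fold higher (1.75 to 3.37), and their part in the Mmp12 value was not tested.

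Mmp13, or collagenase-3, cuts fibrillar collagens. Its log2 ratios on the first arrays ran from -0.13 in tumor 5 through a median of 0.57 to 1.86 in tumor 3, with tumor 6 at 1.55 and tumor 8 at 1.02. Tumor 5 alone was below the pool, and 7 of 8 tumors were above it. The level was 9.90 ± 0.54 in the tumors and 9.01 ± 0.14 in the pool. Averaged as labelled, the log2 ratio was 0.89 ± 0.58 (SD, n = 8; limma SE 0.190, adjusted p = 0.0139), or 1.85-fold. The first arrays alone gave 0.75 (limma adjusted p = 0.0393), the best-matching arrays 0.85 (limma adjusted p = 0.0416), and the first arrays without tumor 3 gave 0.59 with a limma adjusted p of 0.0624, which ended the call; that last setting was chosen after seeing the data. The slide means were 0.81, 0.68 and 1.37.

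Mmp12 and Mmp13 lie together with other Mmp genes on chromosome 9. The probes of Mmp13, Mmp12, Mmp3, Mmp1a, Mmp10, Mmp20 and Mmp7 map between bases 7280046 and 7695493 of that chromosome (mm7, the build in the file headers; the Mmp12 probe at 7352125-7352640 and the Mmp13 probe at 7280046-7280105). The promoters of several of these genes are known from other work to carry a binding site for AP-1, the Fos and Jun dimer. RefSeq promoter windows, from 250 bases before to 50 after the start, were found for 27 of the 41 members (30 windows, GRCm38.p6). The AP-1 heptamer, TGAGTCA or its reverse complement TGACTCA, stood in 6 of the 30 windows (20.0%), those of Mmp1a, Mmp3, Mmp7, Mmp10, Mmp12 and Mmp13, and in 5.2% of all 32851 windows. The TATA box TATAAA, searched on both strands, stood in 30.0% of the members' windows and 13.6% of all. A match of letters is a description and not a measured site. The 120 bases before the start are shown for the called pair and for Mmp3 and Mmp10, stromelysins with 1 outlying tumor each, with the heptamer and the TATA box in capitals.
Mmp12, start 1, chr9:7344277-7344396, plus strand: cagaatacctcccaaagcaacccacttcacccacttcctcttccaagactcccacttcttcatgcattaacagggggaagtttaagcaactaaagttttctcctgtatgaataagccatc
Mmp12, start 2, chr9:7347254-7347373, plus strand: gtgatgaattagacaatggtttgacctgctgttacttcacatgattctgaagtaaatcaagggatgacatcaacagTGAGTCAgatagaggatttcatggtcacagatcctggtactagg
Mmp13, chr9:7272394-7272513, plus strand: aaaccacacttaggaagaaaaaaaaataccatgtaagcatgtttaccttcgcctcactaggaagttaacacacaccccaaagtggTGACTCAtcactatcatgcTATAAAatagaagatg
Mmp3, chr9:7445702-7445821, plus strand: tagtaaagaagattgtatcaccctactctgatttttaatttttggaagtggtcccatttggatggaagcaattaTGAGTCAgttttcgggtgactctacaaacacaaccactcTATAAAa
Mmp10, chr9:7502222-7502341, plus strand: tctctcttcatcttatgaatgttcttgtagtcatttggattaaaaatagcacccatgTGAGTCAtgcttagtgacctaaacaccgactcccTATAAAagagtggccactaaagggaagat

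**Figure D3:**
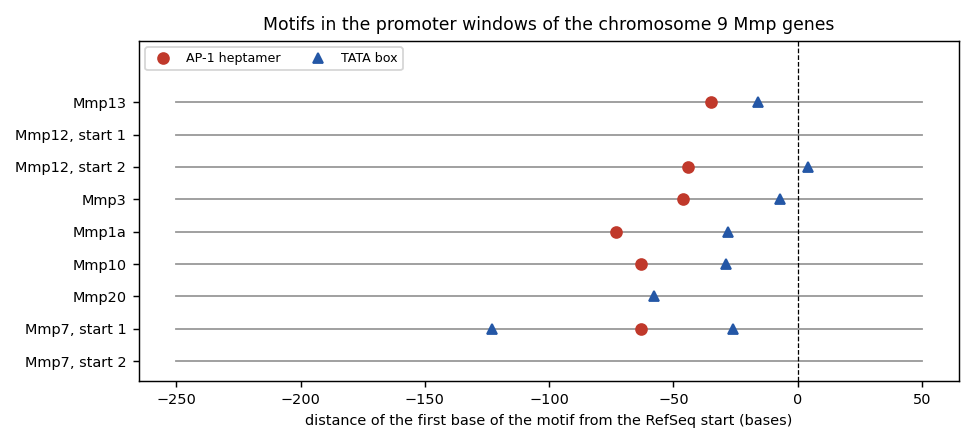
First base of each AP-1 heptamer (circles) and TATA box (triangles) in the promoter windows of the Mmp genes of chromosome 9, as distance in bases from the RefSeq start (dashed line). The heptamer began 35 bases before the start in Mmp13, 44 in Mmp12 (start 2), 46 in Mmp3 and 63 in Mmp10.

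Genes known to drive transcription of Mmp genes were measured in a list of 11, with a median log2 ratio of 0.30. Of these, Il1b (log2 ratio 1.44 ± 0.73, SD, n = 8; limma adjusted p = 0.00475) and Il1a (0.57 ± 0.46; limma adjusted p = 0.0351), cytokines that induce Mmp genes in stromal cells, rose. The AP-1 genes Fos (0.83 ± 0.90), Fosl1, Jun and Junb were not called. These tests are given only with arrays averaged as labelled, where values of different tumors may share an RNA. For Il1b the averaged values of tumors 2 and 3 were 2.20 and 2.73, and the first array of tumor 3 was at 3.82.

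Mmp3 (stromelysin-1) and Mmp10 (stromelysin-2) cut many matrix proteins and activate other Mmp proenzymes. Neither was called. Mmp3 had 3.76 in tumor 3 on the first arrays and between -1.35 and 0.54 in the other 7 tumors, so that one tumor stood far from the rest. Its mean with arrays averaged as labelled was 0.54 ± 1.02 (SD, n = 8; limma adjusted p = 0.260), and with the first arrays alone 0.46 ± 1.46 (limma adjusted p = 0.489). Mmp10 had 2.47 in tumor 6 and between -0.05 and 0.63 in the other 6 tumors that gave a value, with a mean of 0.64 ± 0.83 (SD, n = 7; limma adjusted p = 0.145), and 0.62 ± 0.85 with the first arrays alone (limma adjusted p = 0.149).

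Mmp16 (MT3-MMP), a protease anchored in the cell membrane, was the only member called lower. Its log2 ratios on the first arrays ran from -3.25 in tumor 3 through a median of -1.23 to 0.72 in tumor 6, and 7 of 8 tumors were below the pool. Tumor 2 (-2.28) was the next lowest and tumor 7 (-0.64) was the mildest of those below the pool. The level was 11.8 ± 1.19 in the tumors and 13.002 ± 0.15 in the pool. Averaged as labelled, the log2 ratio was -1.18 ± 1.07 (SD, n = 8; limma SE 0.333, adjusted p = 0.0387), a 2.26-fold difference. A second, dimmer probe of Mmp16 gave -0.72 ± 0.56 (limma adjusted p over all probes = 0.0315), so both probes fell. That probe was below the pool in 8 of 8 tumors, with -0.91 in tumor 6. The value above the pool in tumor 6 thus rested on 1 probe. The first arrays alone gave -1.29 (limma adjusted p = 0.0320), whereas the best-matching arrays gave -1.24 (limma adjusted p = 0.0635) and median centring -0.83 (limma adjusted p = 0.177), neither of which was called. Leaving out any one of the 8 tumors other than tumor 6 also ended the call, with the limma adjusted p between 0.0586 and 0.0913. The slide means were -1.98, -0.59 and -1.55. The representative probe maps to chromosome 4, bases 18044344-18044403 (mm7).

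None of the other membrane-type enzymes was called. Mmp14 (MT1-MMP), the activator of the Mmp2 proenzyme, had 2 probes whose log2 ratios disagreed in tumors 6 and 7. There the dimmer probe was at -2.92 and -3.51 and the brightest at -0.24 and -1.31. On the first arrays the brightest probe was at 2.21 in tumor 3 and 0.90 in tumor 2. It lay between -1.31 and -0.24 in the 5 other tumors that gave a value. Its mean was -0.54 ± 1.07 (SD, n = 8; limma adjusted p = 0.287), against -0.27 ± 1.35 with the first arrays alone (n = 7; limma adjusted p = 0.678), and a second probe gave -1.09 ± 1.63 (limma adjusted p over all probes = 0.173). Mmp17 (MT4-MMP) was above the pool in 8 of 8 tumors, by 0.02 to 1.63 on the first arrays, with the highest value in tumor 6, on its brightest probe; the mean was 0.42 ± 0.56 (SD, n = 8; limma adjusted p = 0.140), and 0.56 ± 0.56 with the first arrays alone (limma adjusted p = 0.0614). It was the only member with 1 sign in all 8 tumors averaged as labelled, where 4.83% of all genes were higher and 9.6% lower in every tumor. On 3 of the 4 swapped arrays Mmp17 was below the pool, and the mean of that slide was -0.12. Its second probe, well above background on all 12 tumor arrays, was above the pool in 6 of 8 tumors and had its lowest value, -0.16, in tumor 6, with a mean of 0.23 ± 0.27 (SD, n = 8; limma adjusted p over all probes = 0.200), so the sign in all 8 tumors and the high value of tumor 6 rested on 1 probe.

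The gelatinases Mmp2 and Mmp9, which degrade denatured collagen and basement membrane collagen, were not called. Mmp2 had log2 ratios from -2.00 in tumor 6 through a median of 0.52 to 3.16 in tumor 3 on the first arrays. Tumors lay on both sides of the pool, and the mean was 0.30 ± 1.18 (SD, n = 8; limma adjusted p = 0.586), or 0.48 ± 1.44 with the first arrays alone (limma adjusted p = 0.463). Mmp9 ran from -0.26 in tumor 6 through 0.19 to 1.77 in tumor 3, with tumor 7 at 1.42, and its mean was 0.52 ± 0.62 (SD, n = 8; limma adjusted p = 0.106), or 0.52 ± 0.75 with the first arrays alone (limma adjusted p = 0.149). For both genes tumor 3 was the highest and tumor 6 the lowest.

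Adamts6, a secreted protease known to act on microfibrils of the matrix, was the only Adamts gene called. Its log2 ratios on the first arrays ran from -0.31 in tumor 5 through a median of 0.44 to 1.35 in tumor 6, with tumor 3 at 1.23 and tumor 7 at 1.14. Tumors were above the pool in 7 of 8. The level was 8.09 ± 0.53 in the tumors and 7.49 ± 0.04 in the pool, and the probe was well above background on 11 of 12 tumor arrays and 8 of 12 pool arrays. Averaged as labelled, the log2 ratio was 0.60 ± 0.53 (SD, n = 8; limma SE 0.177, adjusted p = 0.0448), or 1.52-fold. The call was lost with the first arrays alone (0.57; limma adjusted p = 0.0742), with the best-matching arrays (0.59; limma adjusted p = 0.0929), with median centring (limma adjusted p = 0.0624) and when any one tumor except tumor 5 was left out. The slide means were 0.53, 0.60 and 0.68, and the scanner's own processed signals gave 1.27 (limma adjusted p = 0.0229). Its probe maps to chromosome 13, bases 101633753-101633812 (mm7).

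Among the procollagen N-proteinases, Adamts2 had the value 2.52 in tumor 3 and between -1.06 and -0.09 in the other 7 tumors on the first arrays. Its mean was -0.21 ± 0.89 (SD, n = 8; limma adjusted p = 0.627), or -0.23 ± 1.17 with the first arrays alone (limma adjusted p = 0.670), and the direction rested on the probe, since its 3 other probes had means of 0.34, 0.07 and 0.51. On those 3 probes tumor 3 was also the highest first array (3.15, 2.34 and 2.05), but tumor 6 was at 1.49, -0.67 and 1.74. The range of the other 7 tumors thus rested on the brightest probe. On that probe, with the first arrays alone and without tumor 3, Adamts2 was at -0.62 (limma adjusted p = 0.0197), in a setting chosen after seeing the data. Adamts3, named here after its values were seen, ran the other way: -1.66 in tumor 3 and 2.16 in tumor 6, with a mean of 0.44 ± 0.97 (SD, n = 8; limma adjusted p = 0.340) and its 2 other kept probes at -0.12 and 0.31; the first arrays alone gave 0.33 ± 1.14 (limma adjusted p = 0.529).

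The proteoglycan-cleaving enzymes were not called. Adamts1 was at 1.75 in tumor 3 and between -0.91 and 0.24 in the other 7 tumors. Adamts15 was at 2.27 in tumor 3 and between -0.44 and 0.81 in the other 7. Their means were -0.08 ± 0.68 and 0.48 ± 0.50 (SD, n = 8 each; limma adjusted p = 0.820 and 0.0763), and with the first arrays alone -0.06 and 0.57 (limma adjusted p = 0.892 and 0.132). Adamts8 and Adamts10 were called on a probe other than the brightest: a dimmer Adamts8 probe gave 0.77 ± 0.61 and a dimmer Adamts10 probe -1.05 ± 0.96 (limma adjusted p over all probes = 0.0313 and 0.0446), while their brightest probes gave 0.49 and -0.39 and were not called.

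The other 18 tested members were 8 Mmp genes (Mmp7, Mmp11, Mmp15, Mmp19, Mmp23, Mmp24, Mmp25 and Mmp28) and 10 Adamts genes (Adamts4, Adamts5, Adamts7, Adamts8, Adamts9, Adamts10, Adamts12, Adamts16, Adamts19 and Adamts20). They include the aggrecanases Adamts4 and Adamts5, and Adamts7 and Adamts12, which cut the cartilage matrix protein COMP. On their brightest probes none was called, the means ran from -0.39 for Adamts10 to 0.56 for Adamts12, and the lowest limma adjusted p was 0.090, for Adamts8. Where arrays are averaged as labelled, the SD between tumors ran from 0.21 for Adamts20 to 1.06 for Mmp15.

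None of the 4 Timp genes was called. Timp2, which both inhibits Mmp2 and takes part in its activation by Mmp14, had log2 ratios from -2.995 in tumor 7 through a median of -0.99 to 2.67 in tumor 3 on the first arrays. The other 7 tumors lay at or below -0.60, so tumor 3 alone was above the pool. The level was 13.4 ± 1.25 in the tumors and 14.3 ± 0.14 in the pool, and the mean log2 ratio was -0.87 ± 1.31 (SD, n = 8; limma adjusted p = 0.164), or -0.82 ± 1.61 with the first arrays alone (limma adjusted p = 0.259). Without tumor 3 the first arrays gave -1.32 (limma adjusted p = 0.0128), in the setting chosen after seeing the data, so that 1 tumor decided the call. The slide means were -0.04, -1.60 and -0.25.

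Timp1, an inhibitor induced in inflamed and growing tissue, ran from -0.86 in tumor 6 through 0.54 to 2.69 in tumor 3. Its mean was 0.33 ± 0.90 (SD, n = 8; limma adjusted p = 0.443), or 0.52 ± 1.10 with the first arrays alone (limma adjusted p = 0.302), and its 2 other probes gave 0.46 and 0.76, neither called. In tumor 6 those 2 probes were at -0.59 and 1.26, so the probes of Timp1 disagreed there. Timp3, the inhibitor that binds the matrix and also acts on Adam and Adamts enzymes, ran from -0.52 in tumor 6 through 0.09 to 1.51 in tumor 3, with a mean of 0.22 ± 0.57 (SD, n = 8; limma adjusted p = 0.442), or 0.26 ± 0.66 with the first arrays alone (limma adjusted p = 0.398). Timp4 stayed between -0.38 and 0.63 on the first arrays, with a mean of -0.05 ± 0.33 (SD, n = 8; limma adjusted p = 0.820), or 0.0035 with the first arrays alone (n = 7; limma adjusted p = 0.988), and its sign turned in some settings.

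The median SD between tumors (0.63) was larger than the median size of the mean log2 ratio (0.37) over the members. The same held over all tested genes (0.46 and 0.26). Tumor 3 held most of the members' high values. On its first array 25 of 36 members were at least 2-fold higher than in the pool and 2 were at least 2-fold lower, against 13.5% and 8.09% of all genes measured there. On the swapped array labelled tumor 2 the counts were 23 and 4 of 36, against 14.4% and 9.98% of all genes. In no other array were more than 8 members at least 2-fold higher. The median over the members was 1.49 on the first array of tumor 3 and 1.32 on the swapped array labelled tumor 2, and between -0.09 and 0.29 on the other 10 arrays.

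**Figure D4:**
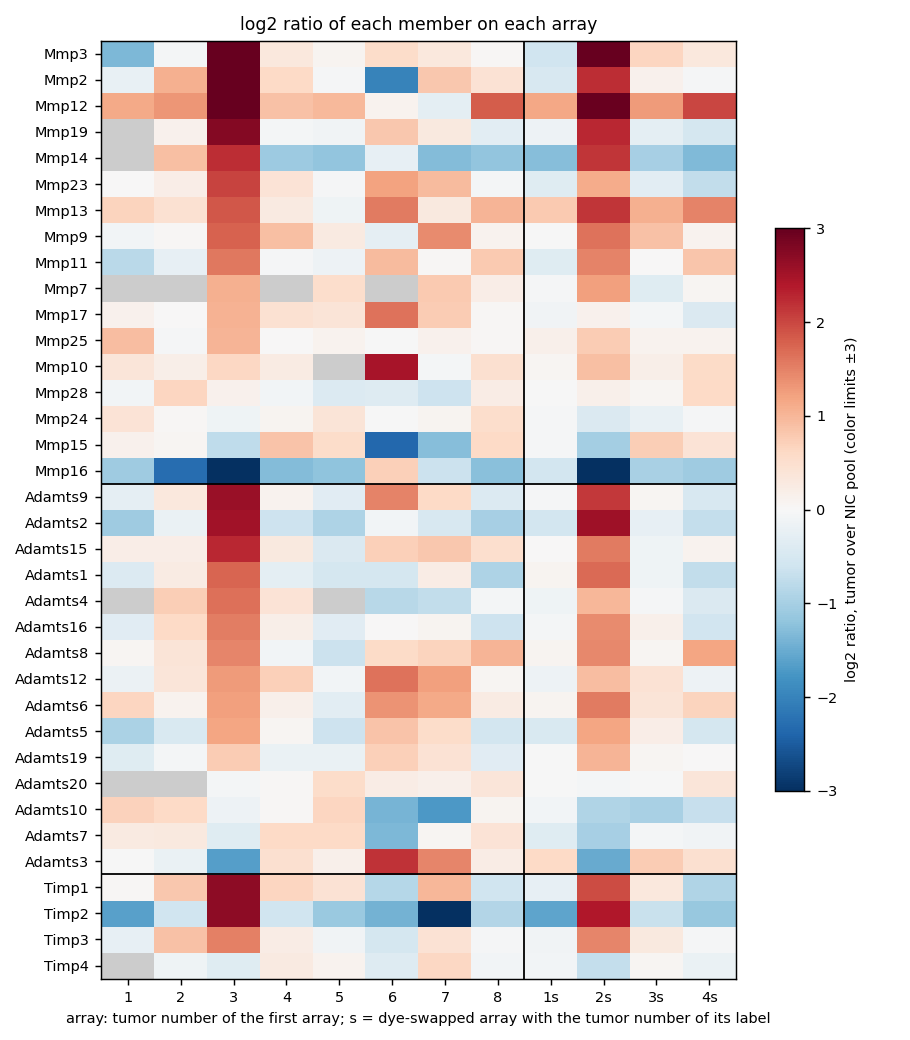
Log2 ratio (tumor over NIC pool) of each tested member (rows, in the order Mmp, Adamts, Timp) on each of the 12 arrays (columns; s marks a swapped array under its labelled tumor); red is higher and blue lower in the tumor, colors end at ±3, and gray marks spots left out as outliers. The columns of tumor 3 and of the swapped array labelled tumor 2 are red for most rows, with Mmp16 blue in both.

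The high values in tumor 3 crossed the families. On its first array and the swapped array labelled tumor 2, Mmp3 had 3.76 and 3.68, Mmp2 3.16 and 2.21, Mmp12 3.14 and 2.97, Mmp19 2.76 and 2.26, Timp1 2.69 and 1.97, Timp2 2.67 and 2.40, Adamts9 2.60 and 2.13 and Adamts2 2.52 and 2.53. Mmp16 (-3.25 and -3.62) and Adamts3 (-1.66 and -1.50) were at least 2-fold lower on both. Enzymes and their inhibitors were thus high together in that tumor. The highest first-array value lay in tumor 3 for 23 of 36 members (63.9%), and for 22.4% of all genes. Tumor 6 held the highest value of 6 members (16.7%) and the lowest of 8 (22.2%), against 26.6% and 25.1% of all genes, so neither share exceeded that of the array.

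**Figure D5:**
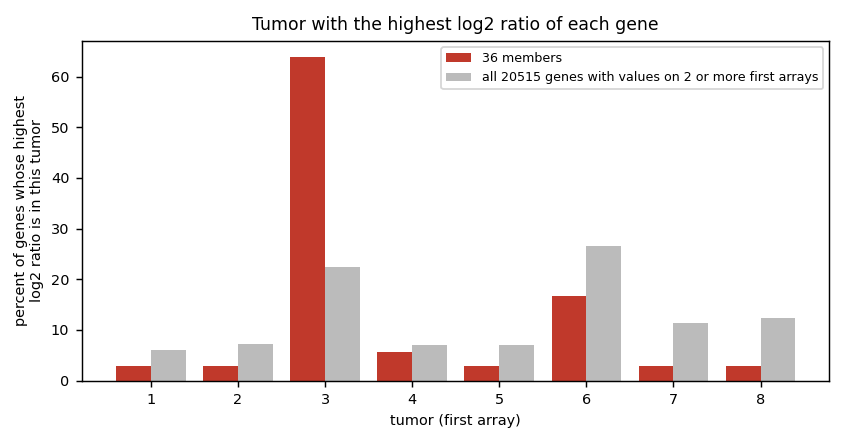
Percent of genes whose highest first-array log2 ratio is in each of the 8 tumors, for the 36 tested members (red) and for all genes (gray). Tumor 3 holds 63.9% of the members and 22.4% of all genes, and tumor 6 holds 16.7% of the members and 26.6% of all genes.

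Markers of other cell types moved with tumor 3. All 8 fibroblast markers were at least 2-fold higher there (log2 ratios 1.43 to 3.93), as were 7 of 7 macrophage markers (1.75 to 3.37), 7 of 8 myoepithelial markers, 4 of 5 neutrophil markers and 4 of 4 skeletal muscle markers (3.87 to 4.94). So were 5 of 9 luminal epithelial markers, with Krt19 at 5.26, 5 of 7 endothelial, 3 of 8 T and B cell and 2 of 6 adipocyte markers. The summed level of the fibroblast markers, as log2 intensity, was 19.0 on the first array of tumor 3 and 19.5 on the swapped array labelled tumor 2, between 15.6 and 17.5 in the tumor channel of the other 10 arrays, and between 15.9 and 16.7 in the pool. That of the macrophage markers was 17.7 and 18.0 on the same pair, 14.8 to 16.1 on the other 10 arrays and 15.1 to 15.7 in the pool. That of the skeletal muscle markers was 16.5 and 16.7 on the pair, 10.3 to 14.3 on the others and 10.7 to 13.6 in the pool. Each tested marker of these lists was well above background on at least some tumor arrays. Matrix genes cut by these proteases were high there too: Col1a1 was at 4.32, Col3a1 at 4.06 and Col1a2 at 3.62 on the first array of tumor 3, and Shc1 was at -2.05, the lowest of the 8. The part of these cell types in the members' values was not tested.

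Tumor 6 had 8 of 35 measured members at least 2-fold higher and 5 at least 2-fold lower, against 13.4% and 21.5% of all genes measured there. The higher ones included Mmp10 (2.47), Adamts3 (2.16), Adamts12 (1.64), Mmp17 (1.63) and Mmp13 (1.55). The lower ones included Mmp15 (-2.37), a membrane-type enzyme, and Mmp2 (-2.00). Those are values of the brightest probes. In tumor 6 the other kept probes were at -0.46 and -0.39 for Adamts3, at -0.16 for Mmp17 and at 0.35 and 0.16 for Adamts12, so for these 3 genes the probes disagreed; Mmp10 and Mmp13 have 1 probe each. Adamts12 and Mmp15 were named after their values were seen.

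Tumor 7 held the lowest value of Timp2 (-2.995) and of Mmp12 (-0.30), and 4 of its 36 members were at least 2-fold higher and 4 at least 2-fold lower, against 9.0% and 13.8% of all genes measured there. The medians of its T and B cell, neutrophil and adipocyte markers were 3.14, 1.65 and 1.54. Those of its skeletal muscle and myoepithelial markers were 1.04 and 0.91. Fibroblast, luminal, endothelial and macrophage markers had medians of 0.43, 0.32, 0.13 and 0.04. The part of these cell types in those values was not tested.

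Other genes of the proteolytic system were measured in lists. Their tests are given only with arrays averaged as labelled, where values of different tumors may share an RNA. None of 8 ADAM membrane proteases (median log2 ratio 0.03), 6 ADAMTS-like proteins (0.03) and 9 matrix substrates (-0.10) was called (limma, adjusted p under 0.05), and the median over all tested genes was -0.02. Of 6 plasminogen activation genes (median -0.01), Plau, the urokinase that makes plasmin, fell (-0.93 ± 0.88, SD, n = 8; limma adjusted p = 0.0471). Of 9 cathepsins and cystatins (median 0.16), the cysteine protease inhibitor Cst3 rose (0.82 ± 0.43; limma adjusted p = 0.00746). Of 9 other activators and inhibitors (median -0.07), Lcn2, a partner that stabilises Mmp9, rose (1.498 ± 1.12; limma adjusted p = 0.0188), Pcsk6, a proprotein convertase, rose (0.88 ± 0.51; limma adjusted p = 0.00901), and A2m, the broad protease inhibitor alpha-2-macroglobulin, fell (-1.36 ± 1.18; limma adjusted p = 0.0318).

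The cell type lists were tested over all 8 tumors with arrays averaged as labelled only, so their calls carry the doubt about the swapped labels. None of 8 fibroblast, 7 macrophage, 7 endothelial and 6 adipocyte markers was called, with medians of 0.25, 0.27, 0.04 and -0.32. Neutrophil markers S100a8 (1.70 ± 1.15; limma adjusted p = 0.0128) and Ltf (1.79 ± 0.66; limma adjusted p = 0.00134), 2 of 5 with a list median of 1.24, rose. Basal markers Krt5, Krt14 and Oxtr, 3 of 8 with a list median of 0.62, rose by 1.29, 0.83 and 0.89, as did the luminal markers Krt8 and Tacstd1, 2 of 9 with a list median of 0.73, by 0.84 and 0.73. Mylpf rose by 0.99 among 4 skeletal muscle markers, where the list median was 0.72. Among 8 T and B cell markers, with a list median of 0.62, Cd3e was called lower at -0.996 with values in 4 tumors only, while the means of the other 7 lay between 0.10 and 1.08, none called.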

How the data were processed

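Per the labels, RNA of 8 tumors and of a NIC tumor pool was amplified and hybridised on 12 two-color arrays. The intensity values are the deposited scanner output (Agilent Feature Extraction 9.5.3.1, per the file headers). The log10 ratio of red over green processed signals, per the file headers, was used as an alternative. From the intensities, normexp background correction (offset 50) on mean foreground and median background, loess within each array with control spots at weight 0, log2 of tumor over pool, and averaging of spots per probe were computed. Outlier-flagged spots (0.470% to 13.7% of gene spots per array) were left out. The 2 arrays of tumors 1 to 4 were averaged as labelled (n = 8), then tested against 0 with limma 3.58.1 (R 4.3.3) and Benjamini-Hochberg adjustment over 20583 genes. The labels do not say that the tumors came from separate animals, and p-values measure only the spread between these 8 samples; the number of arrays limits the precision. Per the file headers, gene symbols and coordinates are those of the array design (mm7) and may be old. The deposited value table holds log2-like ratios made by the authors, running as tumor over pool on every array (correlation with the loess ratios 0.826 to 0.988), with column medians from -0.0715 to 0.137; its normalization and centring are unknown, and it served as an alternative. Promoters came from RefSeq (GRCm38.p6) and were read with Python 3.11.15. Named genes were the called members, the Timps, Mmp2, Mmp9, Mmp14, members with an outlying tumor, Shc1, and up to 3 called genes of each list. Members and lists were chosen with earlier results of these data known. The procedure was tested on simulated data with independent tumors, which does not cover averaged values that share an RNA. 1 gene is not reported here.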

Additional observations from a re-analysis of the deposited data

Results flagged for a closer look

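In 36 members with values in up to 8 tumors, single tumors far from the others were sought with Dixon's criterion, which chance alone meets in about 1 in 20 groups. With arrays averaged as labelled, 2 of 36 members had one, both in tumor 6: Mmp10 at 2.47 and Mmp17 at 1.63 (log2 ratio, tumor over pool); a second Mmp17 probe had -0.16 in that tumor. On the first arrays 7 of 36 had one. Mmp10 again had it in tumor 6, at 2.47. The other 6 were in tumor 3: Mmp3 at 3.76, Mmp19 at 2.76, Timp2 at 2.67, Adamts2 at 2.52, Adamts15 at 2.27 and Adamts1 at 1.75. These are brightest probes, and the other Adamts2 probes were at 1.49, -0.67 and 1.74 in tumor 6. In the averaged values the first array of tumor 3 is combined with a swapped array that matched tumor 4 best.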

How the results depend on the processing

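Of the called members, Mmp13 was called in 20 of 21 alternative settings, Mmp12 in 17 of 21, Mmp16 in 9 of 21 and Adamts6 in 6 of 20, all with the direction kept. The number of called members, 4, fell to 2 when a dye effect was fitted over the best-matching pairs, with no filter on dim probes, with the best-matching arrays averaged (chosen after seeing the data) and with a 2-fold minimum, and ran from 1 to 5 when each tumor was left out in turn. Of all tested genes, 8.04%, 13.1%, 11.1% and 4.78% were called in the settings with 2, in that order, and 9.72% to 22.3% with a tumor left out. The number of called members was 6 with the mean over all kept probes, where 16.6% of all tested genes were called. Adamts8 and Adamts12 were gained there, and higher calls numbered 5 in place of 3. It was 5 with outlier spots kept, where Mmp7 was gained and 20% of all tested genes were called. Mmp17 was gained on the first arrays with a slide block, where 23.9% of all tested genes were called. The 3548 called genes became 1650 in that dye fit, 2280 with best-matching arrays averaged and 983 with a 2-fold minimum, and 2000 to 4590 with a tumor left out. Over all members 657 values kept side and direction, 31 lost a call, 11 gained one and 47 turned sign, none of them called. Leaving out a tumor turned Adamts1 (-0.23 to 0.0379), Adamts4 (-0.16 to 0.12), Adamts5 (-0.0734 to 0.15), Adamts7 (-0.18 to 0.10), Adamts16 (-0.0587 to 0.17), Mmp15 (-0.42 to 0.0060), Mmp28 (-0.13 to 0.0201) and Timp4 (-0.14 to 0.0081). Agilent's processed signals turned Adamts1 (0.0394), Adamts16 (-0.0631) and Adamts7 (0.00090), and the authors' value table Adamts4 (0.048). Median centring turned Adamts1 (0.0833), Adamts2 (0.0377), Adamts4 (0.0581) and Adamts7 (0.18). Keeping outlier spots turned Adamts4 (0.14). First arrays alone turned Adamts4 (0.19), Adamts7 (0.0645) and Timp4 (0.0035), and so did a slide block on them (0.19, 0.0645 and 0.0044). The dye term with labelled pairs turned Adamts1 (0.0926), Adamts2 (0.0168), Adamts4 (0.16), Mmp24 (-0.0055) and Mmp28 (0.0667), and with best-matching pairs Adamts1 (0.0429), Mmp24 (-0.0277) and Mmp28 (0.0069). Averaging best-matching arrays turned Adamts4 (0.0426). The mean over probes turned Adamts2 (0.16) and Adamts5 (-0.0882). First arrays without tumor 3, chosen after seeing the data, turned Adamts16 (-0.0593), Adamts19 (-0.0052), Adamts5 (-0.16), Adamts7 (0.13), Mmp3 (-0.0168) and Timp4 (0.0644). The causes were not tested. No paired analysis was possible because the tumors form 1 group set against a pool. Dim members such as Mmp24, Adamts19 and Adamts20 are limited by signal near background.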
